A study of Mus musculus with 15 samples.

Results

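The 10 genes described here lie beside Hsd17b1 on mouse chromosome 11: Naglu, Coasy, Mlx, Psmc3ip, Tubg1, Tubg2, Plekhh3, Atp6v0a1, Ptrf and Stat3. They were chosen by name for their position, with earlier results of these data known, and all 10 were found among the 27907 genes of the table. All 10 also passed the filter on low values. The mRNA of whole ovaries was sequenced in 15 female mice of 6 months, all in estrus: 7 HSD17B1-KI mice, homozygous for the Ser143Ala mutation of Hsd17b1 made by CRISPR/Cas9, and 8 WT mice. Both genotypes came from crosses of heterozygous parents and neither was treated. Every HSD17B1-KI mouse carried the edited copy of the chromosome on both homologues and no WT mouse did, so that the point mutation and any other difference linked to it cannot be told apart.

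HSD17B1 converts low-activity estrogens such as estrone to the active estradiol, and in the ovary it is made mainly by the granulosa cells of growing follicles. The gene is short and sits in a dense group of genes that serve unrelated processes in most cells: lysosomal breakdown, coenzyme A synthesis, transcription, microtubule nucleation and membrane structure. An earlier knockout line, in which Hsd17b1 was replaced by a lacZ cassette, had lost much of the expression of Naglu, the gene just upstream. Whether the transcripts of the genes around the edited allele differ is what the comparison of HSD17B1-KI with WT ovaries describes here. It cannot tell a local effect of the allele from effects of the altered ovary. In HSD17B1-KI females of similar age the paper reports higher serum LH and higher ovarian estrone and androstenedione. It also reports enlarged interstitial areas in some of the ovaries.

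The edit concerned a single codon. In the GENCODE M21 annotation of GRCm38 (the same assembly as mm10, to which the reads were aligned) codon 143 of Hsd17b1 is an AGT serine codon at chr11:101079090-101079092 on the plus strand, in exon 3 of 6 of a transcript that encodes 343 residues. The reference sequence around it, chr11:101079060-101079108, is shown to place the edit, with the codon in capitals. The mutant allele replaces this serine by alanine.
Hsd17b1 codon 143: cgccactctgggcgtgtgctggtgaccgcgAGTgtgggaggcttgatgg

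On either side, the neighbours stood close. Naglu (chr11:101070012-101077672, plus strand) ended 738 bases before the start of Hsd17b1 (chr11:101078411-101080527, plus strand), and Coasy (chr11:101082565-101086619, plus strand) began 2037 bases after its end. Farther upstream lay Atp6v0a1 (chr11:101009452-101063719, plus strand), Ptrf (chr11:100956733-100970887, minus strand) and Stat3 (chr11:100885098-100939540, minus strand), at gaps of 14691, 107523 and 138870 bases. Downstream of Coasy came Mlx (chr11:101087277-101092207, plus strand) and Psmc3ip (chr11:101091823-101095436, minus strand), then Tubg1 (chr11:101119938-101126419, plus strand), Tubg2 (chr11:101155907-101161787, plus strand) and Plekhh3 (chr11:101162679-101171351, minus strand). The group spanned 286 kb and is not every gene there: 15 genes of the table start inside this stretch, Hsd17b1 and the neighbours included.

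A pair of the neighbours shared a sequence in the promoter. RefSeq gave a promoter of 300 bases, from 250 before to 50 after the transcription start on GRCm38.p6, for 8 of the 10 genes, with none listed for Coasy, Tubg1 or Hsd17b1. The palindromic E-box CACGTG, the core that dimers of MLX and lysosomal regulators such as TFEB bind, was searched in them, reading both strands at once because the motif is its own reverse complement. It was found in the promoters of Naglu and Mlx, at -73 and -40 relative to the RefSeq start, and not in those of Psmc3ip, Tubg2, Plekhh3, Atp6v0a1, Ptrf or Stat3. RefSeq starts can differ from the GENCODE gene starts given above, and the Naglu motif lies just after the GENCODE start. For Atp6v0a1 the promoter searched, chr11:101010148-101010447, lies wholly inside the GENCODE gene, so that sequence at its GENCODE start was not searched. Of all 32851 mouse promoters of this length in the RefSeq table, 7.15% hold the motif. Counted by gene, as for the neighbours, 8.09% of 27025 genes hold it in a promoter. The stretches around it are chr11:101070009-101070038 for Naglu and chr11:101087238-101087267 for Mlx, both on the plus strand, with the motif in capitals.
Naglu promoter: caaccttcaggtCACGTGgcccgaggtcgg
Mlx promoter: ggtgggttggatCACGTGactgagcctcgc

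The libraries held from 26544745 to 72362981 reads over genes, 39092867 to 69972608 in HSD17B1-KI and 26544745 to 72362981 in WT. Each neighbour was covered by between 177 and 30267 reads in a library. All lists of ovarian marker genes (granulosa, luteal, theca and oocyte) were detected, so that the libraries matched their labelled tissue. Tissue attached to the ovary varied: the summed level of 6 oviduct markers ran from 709 to 24103 normalized counts in HSD17B1-KI and from 827 to 227759 in WT, highest in WT 1, and that of 5 adipose markers from 2551 to 8493 and from 3142 to 11081. The adipose markers, averaged on the log2 scale, were lower in HSD17B1-KI by a difference of -1.21 (two-sided exact permutation test over 6435 splits, p = 0.0432), and all 5 had an unadjusted p under 0.05. Their part in the results below was not tested beyond a fit with the marker level as a term. In bulk tissue, fewer cells of a type and less RNA per cell cannot be told apart.

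In WT ovaries the neighbours covered a wide range of levels. Per kb of exon, mean normalized counts were 6594 ± 2204 (SD, n = 8) for Hsd17b1 and 4815 ± 578 for Ptrf, the most abundant neighbour. Naglu at 1986 ± 321, Coasy at 1540 ± 320 and Tubg1 at 1110 ± 159 followed. Mlx at 915 ± 103, Atp6v0a1 at 872 ± 65.9, Stat3 at 817 ± 133 and Plekhh3 at 777 ± 115 lay close together, and Tubg2 at 193 ± 31.8 and Psmc3ip at 188 ± 33.5 were the least abundant. In this order the ranges of mean ± SD of adjacent genes overlapped, except between Ptrf and Naglu and between Plekhh3 and Tubg2. The spread between WT mice, as a coefficient of variation on normalized counts, had a median of 15.5% over the 10 neighbours, beside 14.4% over 13865 genes whose mean reached 100.

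The edited gene itself did not differ detectably in mRNA level. Hsd17b1 was at 5459, 10914 and 17386 normalized counts in the lowest, median and highest HSD17B1-KI mouse and at 6480, 7672 and 14111 in WT. The groups overlapped, with both the lowest and the highest mouse in HSD17B1-KI. The log2 fold change was 0.36 (SE 0.24; 95% CI of the fold, 0.902 to 1.84; limma-trend adjusted p = 0.666), and the exact permutation p was 0.188. As the edit changes a codon and not the transcript's length, this level does not check the genotype labels.

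None of the 10 neighbours differed between the genotypes past an adjusted p of 0.05 in limma-trend, the main test, which called 46 of 21525 genes (0.214%). Naglu, Atp6v0a1 and Ptrf, 3 of the 10, had an unadjusted p under 0.05, all with the higher level in HSD17B1-KI, against 10% of all genes in either direction, 5.36% higher and 4.64% lower. The same count of 3 was obtained with edgeR, which called 0.401% of genes and none of the neighbours at the adjusted threshold, and where 12.4% of genes had an unadjusted p under 0.05. DESeq2 called 2 neighbours, Naglu and Atp6v0a1, both higher, and 2.3% of all genes (1.59% higher in HSD17B1-KI), with 3 neighbours and 10.2% of genes under the unadjusted threshold. In 7 neighbours the log2 fold change was above 0, as in 44.8% of all genes, and in 3 it was below, with a median of 0.15 beside -0.02 over all genes tested. The groups overlapped in each of the 10, and they did not overlap in 0.325% of all genes.

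**Figure D1:**
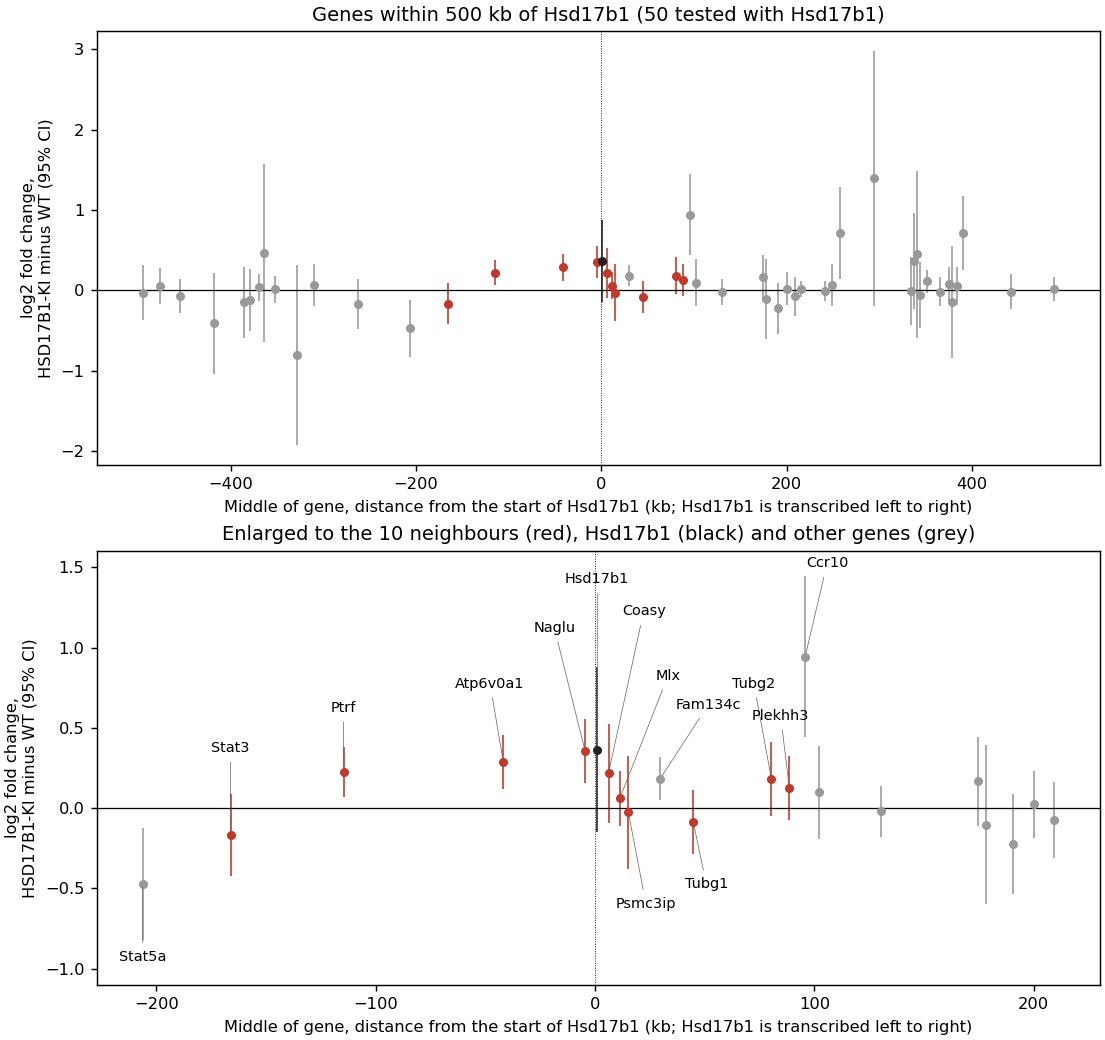
The log2 fold change of HSD17B1-KI (7 mice) over WT (8 mice), with its 95% confidence interval from limma-trend, is plotted against the distance in kb from the start of Hsd17b1 to the middle of each gene, for all genes tested within 500 kb (upper panel) and enlarged around the 10 neighbours (lower panel). Among the neighbours (red), only the intervals of Naglu, Atp6v0a1 and Ptrf lie above 0, and that of Hsd17b1 (black) spans 0.

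Naglu encodes the lysosomal enzyme alpha-N-acetylglucosaminidase, which removes N-acetylglucosamine from the end of heparan sulfate. Its normalized counts in HSD17B1-KI ovaries were 5800 at the lowest, 6803 at the median and 7405 at the highest, and in WT 4191, 5277 and 6732. The level was above the WT mean in 7 of 7 HSD17B1-KI mice and above every WT mouse in 4, while 6 of the 8 WT mice were below every HSD17B1-KI mouse. Mean levels were 6712 ± 540 (SD, n = 7) and 5279 ± 853 (SD, n = 8), the log2 fold change was 0.36 (SE 0.09; fold 1.28, 95% CI 1.12 to 1.47), and the exact permutation p was 0.00404. Adjusted over all genes, p was 0.139 in limma-trend, 0.125 in edgeR and 0.0382 in DESeq2, and it ranged up to 0.714 over the alternatives. Thus the 95% interval of the fold lay above 1, and a lower Naglu level in HSD17B1-KI was outside it.

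The DESeq2 call of Naglu lay near the threshold, while its fold varied little when single mice were left out. Without single mice the limma-trend log2 fold change was 0.31 to 0.41. The DESeq2 call held in 5 of 15 such fits, at an adjusted p of 0.0266 or 0.0447 without HSD17B1-KI 3 or 5 and of 0.00229, 0.0247 or 0.0449 without WT 3, 4 or 6. The adjusted p was 0.107 without HSD17B1-KI 1, 0.108 without HSD17B1-KI 2, 0.0583 without HSD17B1-KI 4, 0.0914 without HSD17B1-KI 6 and 0.0920 without HSD17B1-KI 7. It was 0.0901, 0.0878, 0.0831, 0.0511 and 0.0786 without WT 1, 2, 5, 7 and 8, respectively. With the adipose or the oviduct marker level as a term, the limma-trend log2 fold change of Naglu was 0.27 (adjusted p = 0.714) or 0.32 (0.132).

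Upstream of Naglu lies Atp6v0a1, which encodes the a1 subunit of the membrane sector of the vacuolar ATPase, the pump that acidifies lysosomes and other vesicles. Lowest, median and highest normalized counts were 5751, 7479 and 8120 in HSD17B1-KI and 4962, 5746 and 6302 in WT. All 7 HSD17B1-KI mice exceeded the WT mean and 5 of them every WT mouse, and the remaining 2, HSD17B1-KI 5 and 6, lay among the WT values. The log2 fold change was 0.29 (SE 0.08; fold 1.22, 95% CI 1.09 to 1.37), with means of 7028 ± 908 (SD, n = 7) and 5720 ± 432 (SD, n = 8) and an exact permutation p of 0.00404. The adjusted p was 0.166 in limma-trend, 0.118 in edgeR and 0.0311 in DESeq2, and it ranged up to 0.658 over the alternatives.

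For Atp6v0a1 too the DESeq2 call lay near the threshold, and the limma-trend log2 fold change was 0.25 to 0.34 without single mice. The call held in 7 of 15 fits, at an adjusted p of 0.00249, 0.0143 or 0.0360 without HSD17B1-KI 5, 6 or 7 and of 0.0310, 0.0247, 0.0454 or 0.0494 without WT 2, 3, 4 or 6. Without HSD17B1-KI 1, 2, 3 or 4 the adjusted p was 0.0922, 0.111, 0.080 or 0.0820, and without WT 1, 5, 7 or 8 it was 0.0762, 0.0550, 0.0581 or 0.0782. The limma-trend log2 fold change was 0.26 with the adipose term (adjusted p = 0.658) and 0.28 with the oviduct term (0.195).

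Ptrf, also named Cavin1, encodes the coat protein that shapes caveolae, the small pits of the plasma membrane abundant in endothelium, smooth muscle and adipocytes. Its normalized counts were 18801, 19784 and 21500 in HSD17B1-KI and 14390, 17060 and 19951 in WT, at the lowest, median and highest mouse. All HSD17B1-KI mice lay in a narrow band above the WT mean, with an SD of 916 beside 2072 in WT, and 2 of the 7 were above every WT mouse. The log2 fold change was 0.22 (SE 0.07; fold 1.17, 95% CI 1.05 to 1.30) and the exact permutation p was 0.00917. The adjusted p was 0.267 in limma-trend, 0.250 in edgeR and 0.123 in DESeq2. DESeq2 called Ptrf in 1 of 15 fits that left out a mouse, that without WT 6 (adjusted p = 0.0418). Beside this, the adipose markers were lower in HSD17B1-KI, as given above, with median sums of 3520 and 6771 normalized counts. The summed level of the endothelial markers ran from 11346 to 17658 normalized counts in HSD17B1-KI and from 11291 to 16596 in WT, and that of the smooth muscle markers from 36516 to 76958 and from 44066 to 75081. The smooth muscle medians were 41399 and 59851, the mean log2 level differed by -0.43 (two-sided exact permutation p = 0.0682), and 2 of the 5 markers had an unadjusted p under 0.05. With the adipose or oviduct term the log2 fold change of Ptrf was 0.21 or 0.19, and the part of the endothelial and smooth muscle markers in the level of Ptrf was not tested.

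Downstream of Hsd17b1, no gene of the group reached an unadjusted p under 0.05. Coasy, which encodes the enzyme of the last steps of coenzyme A synthesis, is the nearest. It was at 4064, 4613 and 7235 normalized counts in HSD17B1-KI and at 3170, 4297 and 6207 in WT. The groups overlapped broadly, although 2 HSD17B1-KI mice, 1 and 7, exceeded every WT mouse. The fold was 1.16 (95% CI 0.940 to 1.44; limma-trend adjusted p = 0.666). Without WT 4, the WT mouse with the most Coasy, the log2 fold change was 0.29 in place of 0.22 and the unadjusted p was 0.0470 by limma-trend (adjusted p = 0.510). Among the fits without single mice, this fold change was lowest, at 0.13, without HSD17B1-KI 7 (limma-trend adjusted p = 0.820). With the adipose or oviduct term it was 0.07 (adjusted p = 0.988) or 0.19 (0.702).

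Mlx encodes a basic helix-loop-helix partner of the glucose-sensing factors MondoA and ChREBP. Its normalized counts ran from 1584 to 2102 in HSD17B1-KI, with a median of 1981, and from 1570 to 2116 in WT, with a median of 1828. Psmc3ip, the HOP2 protein that assists strand exchange in meiotic recombination, ran from 217 to 518 with a median of 338 and from 272 to 436 with a median of 312. For Mlx the groups covered nearly the same range, whereas for Psmc3ip the HSD17B1-KI mice spread more widely than the WT mice and included both the highest and the lowest. The folds were 1.04 (95% CI 0.926 to 1.18) and 0.982 (0.770 to 1.25), with limma-trend adjusted p of 0.853 and 0.973. These 2 genes converge and overlap by 385 bases on opposite strands. Whether strand was used in counting is not given in the sources used here, and reads from the overlap cannot be assigned with certainty if it was not.

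Tubg1 and Tubg2 encode the gamma-tubulins, from which microtubules are nucleated. Tubg1 ran from 2100 to 2783 normalized counts in HSD17B1-KI with a median of 2314, and from 1883 to 2984 in WT with a median of 2494. Tubg2 ran from 335 to 426 with a median of 372, and from 267 to 424 with a median of 334. Tubg1 was below the WT mean in 5 of 7 HSD17B1-KI mice and Tubg2 above it in 6 of 7, and in both genes the groups overlapped. The folds were 0.943 (95% CI 0.822 to 1.08; limma-trend adjusted p = 0.821) and 1.13 (0.968 to 1.33; adjusted p = 0.615). Their coding sequences are identical at 93.3% of 1353 bases, so that some reads could be placed on either gene. Tubg2 had an unadjusted p of 0.0484 by limma-trend after quantile normalization and of 0.0425 without WT 4. Its limma-trend log2 fold change was 0.14 to 0.23 without single mice, and the lowest adjusted p of these fits was 0.474.

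Plekhh3, a protein with pleckstrin homology, MyTH4 and FERM domains, had 2592, 2985 and 3517 normalized counts in the lowest, median and highest HSD17B1-KI mouse and 2268, 2867 and 3290 in WT (fold 1.09, 95% CI 0.950 to 1.25; limma-trend adjusted p = 0.706). Stat3, the transcription factor downstream of the interleukin-6 and leukemia inhibitory factor receptors, had 5642, 6765 and 8742 in HSD17B1-KI and 5907, 7944 and 9816 in WT. It was below the WT mean in 5 of 7 HSD17B1-KI mice, with overlapping groups and a fold of 0.891 (95% CI 0.746 to 1.06; limma-trend adjusted p = 0.698). Plekhh3 overlaps Cntnap1 by 829 bases and Stat3 overlaps Stat5a by 72 bases, in each case on opposite strands. Over all 7 neighbours without an unadjusted p under 0.05, log2 fold changes lay between -0.17 and 0.22.

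**Figure D2:**
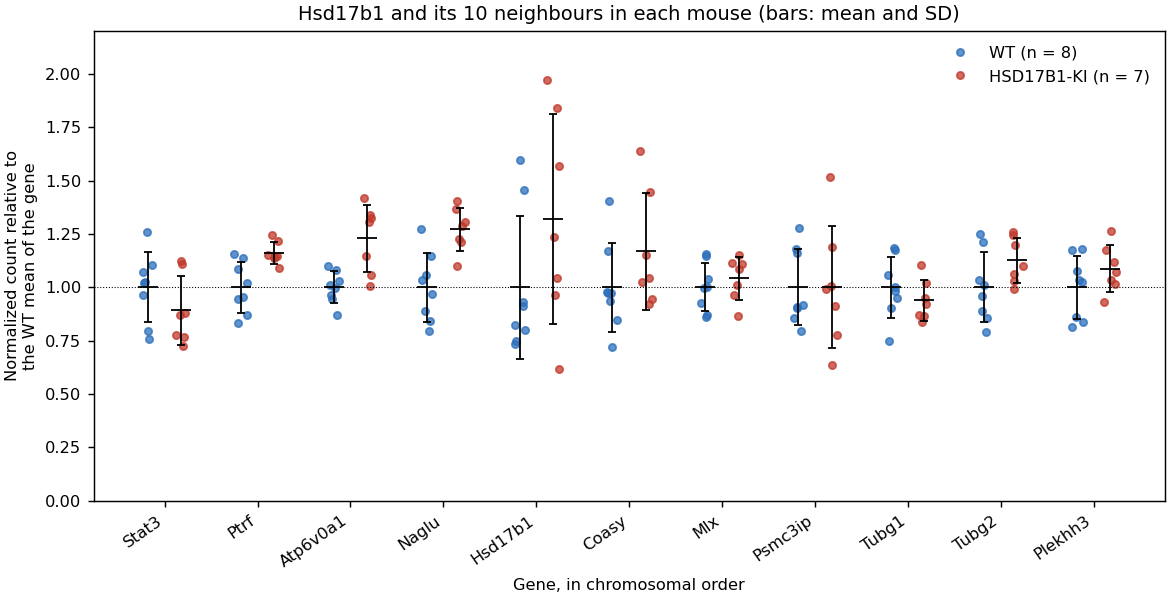
Normalized counts of Hsd17b1 and its 10 neighbours in each mouse, divided by the WT mean of the gene and placed in chromosomal order, with the mean and SD of each genotype (WT, blue, n = 8; HSD17B1-KI, red, n = 7). All red points of Naglu, Atp6v0a1 and Ptrf lie above the WT mean, and in every gene the points of the genotypes overlap.

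A wider window was then examined, because a local difference need not stop at these 10 genes. Of 54 genes within 500 kb of Hsd17b1, 49 were tested besides Hsd17b1, and none passed the adjusted threshold in limma-trend. An unadjusted p under 0.05 was found for 8 of the 49 (16.3%), 7 higher and 1 lower in HSD17B1-KI, and the median log2 fold change was 0.02. Without the 10 neighbours, 5 of 39 (12.8%) had such a p. The share was 12.5% of 32 genes between 0.5 and 1 Mb away, all 4 of them lower, 4.08% of 49 between 1 and 2 Mb, 22 of 157 between 2 and 5 Mb and 8.41% of 1463 in the rest of chromosome 11. The share did not fall steadily with distance, and the share over all genes was 10%. DESeq2 called 3 genes within 500 kb, namely Naglu, Atp6v0a1 and Rnd2.

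The 5 other genes with an unadjusted p under 0.05 within 500 kb were Ccr10, Rnd2, Fam134c, Stat5a and Aoc3. Fam134c, an endoplasmic reticulum protein whose gene lies between Psmc3ip and Tubg1, ran from 5730 to 6967 normalized counts in HSD17B1-KI and from 4669 to 6057 in WT. It was above the WT mean in 7 of 7 HSD17B1-KI mice, with a log2 fold change of 0.18 (SE 0.06; limma-trend adjusted p = 0.302) and an exact permutation p of 0.00544. Rnd2, a small GTPase 384 kb downstream, ran from 1741 to 4638 and from 1326 to 2358, with a log2 fold change of 0.71 (SE 0.22) and an adjusted p of 0.219 in limma-trend and 0.0236 in DESeq2. Its DESeq2 call held in 10 of 15 fits that left out a mouse. It was lost without HSD17B1-KI 1, 2, 6 or 7, at 0.0902, 0.0858, 0.0914 and 0.0570, and without WT 8, at 0.0555.

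Aoc3, an amine oxidase of vessels and adipocytes, ran from 4036 to 11925 normalized counts in HSD17B1-KI and from 3035 to 8409 in WT (log2 fold change 0.71, SE 0.27; limma-trend adjusted p = 0.364). Stat5a, which carries prolactin signals, was the gene with the lower level, from 1794 to 3130 and from 2652 to 4928, below the WT mean in 7 of 7 HSD17B1-KI mice (log2 fold change -0.47, SE 0.16; adjusted p = 0.308). Ccr10, a chemokine receptor, rested on 2 to 20 reads per library. The 7 HSD17B1-KI mice averaged 13.5 ± 3.25 (SD) and the 8 WT mice 6.72 ± 2.31 normalized counts, and the limma-trend adjusted p was 0.119. It lies inside Cntnap1 on the opposite strand, and its reads could come from either gene where strand was not used.

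The neighbours were next compared with Hsd17b1 from mouse to mouse, with genotype as a term in the fit. The slope, in log2 units of the neighbour per log2 unit of Hsd17b1, passed the adjusted threshold for none of the 10 in limma-trend, and for 0.0743% of 21524 genes. An unadjusted p under 0.05 was found for 2, Coasy and Stat3, against 14.2% of genes. The slope of Coasy was 0.36 (SE 0.13; adjusted p = 0.250), at 0.31 within HSD17B1-KI and 0.44 within WT, and that of Stat3 was -0.36 (SE 0.09; adjusted p = 0.144), at -0.28 and -0.49. The sign was the same in both genotypes for each gene. Without the 2 mice farthest from the median of Hsd17b1, HSD17B1-KI 6 and 7, the slopes were 0.37 and -0.43 (adjusted p = 0.367 and 0.195).

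Hsd17b1 is itself a marker of granulosa cells. The 8 granulosa markers, Hsd17b1 among them, summed to between 75165 and 224604 normalized counts in HSD17B1-KI and between 92367 and 201662 in WT. With the mean of the other granulosa markers as a further term, a fit chosen after seeing the data, the slope of Coasy was 0.39 (adjusted p = 0.896) and that of Stat3 was -0.13 (adjusted p = 0.919). For Naglu, the nearest gene, the slope was 0.16 (SE 0.09; adjusted p = 0.431), at 0.09 within HSD17B1-KI and 0.27 within WT, without the granulosa term and 0.25 (adjusted p = 0.901) with it.

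**Figure D3:**
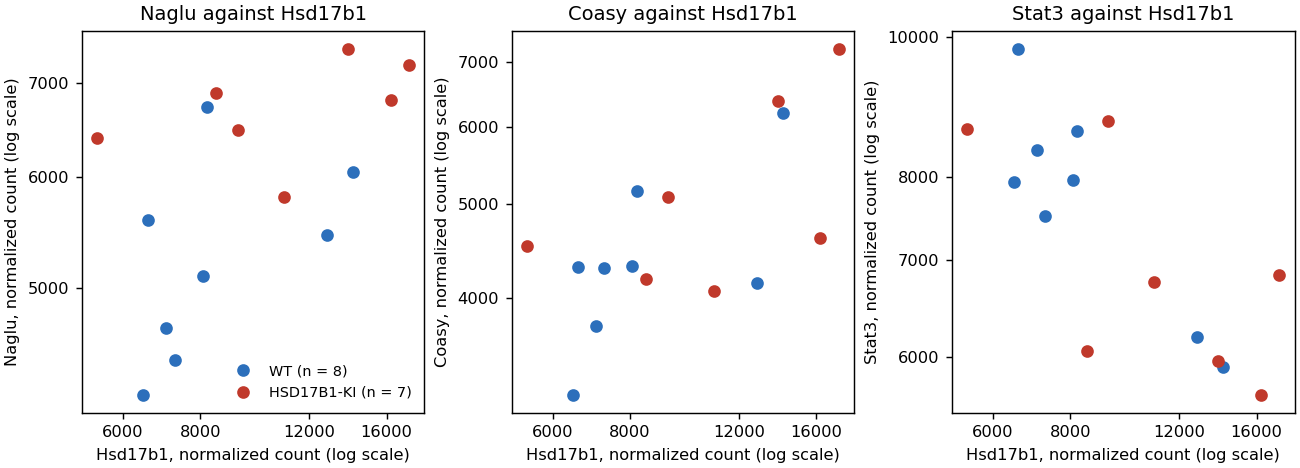
Normalized counts of Naglu, Coasy and Stat3 against those of Hsd17b1 in each mouse, both on a log scale (WT, blue, n = 8; HSD17B1-KI, red, n = 7). The fitted slope is above 0 for Coasy and below 0 for Stat3, with scatter around both and neither past the adjusted threshold. For Naglu, 6 of the 8 blue points lie below every red point.

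The genes whose levels were most like those of Naglu from mouse to mouse lay elsewhere in the genome. Among 13864 genes whose mean reached 100 normalized counts, Pearson's r of log2 values centred within genotype, over 15 mice that share library preparation, was highest for Tmem206 (r = 0.937), Cd3eap (0.873), Ccdc18 (0.869), Atp1b2 (0.866) and Slc25a20 (0.861). Of these, only Atp1b2 is on chromosome 11. Tmem206, an acid-activated chloride channel, had a log2 fold change of 0.53 (limma-trend adjusted p = 0.116) and Slc25a20, the mitochondrial carnitine carrier, 0.24 (0.124). Among the neighbours, Coasy had the highest r with Naglu, 0.736 at rank 59, followed by Tubg1 at 0.609 and rank 334, whereas r was 0.447 for Hsd17b1 and 0.320 for Atp6v0a1. The 2 neighbours that DESeq2 called were thus only loosely related within genotypes.

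The processes that the neighbours serve were described by lists of their partners, chosen for function. Over all lists, 99 of 102 genes were tested, none passed the adjusted threshold in limma-trend, and 14, neighbours included, had an unadjusted p under 0.05, where the share over all genes was 10%. DESeq2 called 6 of them, 4 besides Naglu and Atp6v0a1, and 2.3% of all genes. The same shares over all genes are the background for the counts of each list. For the lysosomal degradation of heparan sulfate, 1 of 10 partners of Naglu had an unadjusted p under 0.05. This was Sgsh, heparan N-sulfatase, with means ± SD of 1797 ± 348 and 1329 ± 295 normalized counts in the 7 HSD17B1-KI and 8 WT mice and a log2 fold change of 0.44 (SE 0.15; limma-trend adjusted p = 0.309). The lowest log2 fold change was that of heparanase, Hpse, at -0.17, and the median of the 10 was 0.06 beside -0.02 over all genes.

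Of 22 tested partners of Atp6v0a1 in the vacuolar ATPase, 2 had an unadjusted p under 0.05, both higher. Atp6v1b2, the B2 subunit of the cytosolic sector, was at 6811 to 7943 normalized counts in HSD17B1-KI and 5884 to 7001 in WT. Its log2 fold change was 0.21 (SE 0.05), with an adjusted p of 0.122 in limma-trend and 0.00966 in DESeq2. For Atp6v0b, a proteolipid subunit, the log2 fold change was 0.17 (limma-trend adjusted p = 0.496), and the median of the 22 was 0.07. The lowest value was that of Atp6v1c2, at -1.29 (SE 1.13), which ran from 5.50 to 889 normalized counts among the WT mice alone. In the caveolar list, by contrast, none of 8 partners of Ptrf had an unadjusted p under 0.05, from Cav1, caveolin 1, at a log2 fold change of -0.24 to Murc, a muscle cavin, at 0.36. The median of the 8 was -0.02.

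For coenzyme A synthesis, 2 of 7 partners of Coasy had an unadjusted p under 0.05, both were higher, and DESeq2 called both. Pank1, a pantothenate kinase that makes the first step of the pathway, ran from 8855 to 23670 normalized counts in HSD17B1-KI and from 4562 to 10788 in WT. The log2 fold change was 0.80 (SE 0.24), with an adjusted p of 0.219 in limma-trend and 0.0410 in DESeq2. Slc5a6, the carrier that brings pantothenate into cells, ran from 669 to 789 and from 505 to 653, with groups that did not overlap (as in 0.325% of all genes), a log2 fold change of 0.28 (SE 0.07) and an adjusted p of 0.119 in limma-trend and 0.00548 in DESeq2. The lowest of the list was Pank4 at -0.04, and the median of the 7 was 0.09.

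Among the 8 partners of the gamma-tubulins, Tubgcp5 had a log2 fold change of 0.40 (limma-trend adjusted p = 0.340), and Tubgcp3 and Nedd1, which tether or build the gamma-tubulin ring, had -0.17 (0.40) and -0.16 (0.442), all with an unadjusted p under 0.05. No gene of the 11 in the MLX network had one, between Mxi1 at -0.16 and Txnip, a target of MLX dimers that responds to glucose, at 0.25. Of 10 meiotic partners of Psmc3ip, 1 had one: Msh4, a MutS homologue of meiotic crossovers, with means ± SD of 16.7 ± 5.05 and 35 ± 17.4 normalized counts in the 7 HSD17B1-KI and 8 WT mice. Its log2 fold change was -0.94 (SE 0.29; adjusted p = 0.237 in limma-trend and 0.0477 in DESeq2), and the highest of that list was Sycp3 at 0.34. In STAT3 signalling, 2 of 14 had one, both lower: Stat5a, given above as a gene of the region, and the kinase Pim1, at -0.26 (SE 0.09; limma-trend adjusted p = 0.333).

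**Figure D4:**
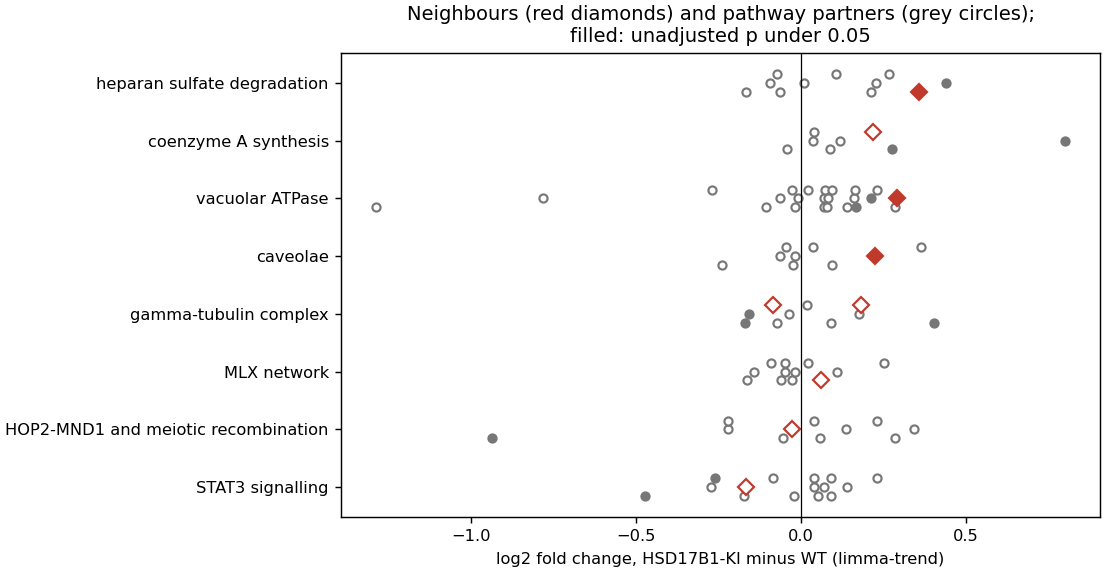
Log2 fold changes of HSD17B1-KI over WT from limma-trend for the neighbours (red diamonds) and the partners of each in a list chosen for function (grey circles), with filled symbols for an unadjusted p under 0.05. Most partners lie between -0.3 and 0.3, and Pank1 at 0.80, Msh4 at -0.94 and Atp6v1c2 at -1.29 stand farthest out.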

How the data were processed

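RNA from 15 ovaries was prepared with the Illumina TruSeq Stranded mRNA kit by the study, whose processing notes name bcl2fastq 2.20, STAR 2.7.3 and mm10. The authors deposited normalized counts per gene, a signal scaled by a size factor per library. Every value was a whole multiple of 1 read (100% within 0.01), and reads recovered this way were used for depth, DESeq2 and edgeR. The study tested with DESeq2, taken here as an alternative because the deposited unit is not counts. On the recovered reads DESeq2 called 456 genes, 314 of them higher in HSD17B1-KI, the same numbers that the study reports. The main fit was limma-trend on log2(normalized count + 1), genotype only, for the 21525 genes whose mean reached 2, two-sided, with Benjamini-Hochberg adjustment over all genes and a threshold of 0.05. Fold changes are on this log2 scale and are slightly understated for low genes. Exact permutation tests used all 6435 splits of the mice. Positions came from GENCODE M21, matched on gene identifiers. Exon length merges all exons of a gene.

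DESeq2 1.42.0, edgeR 4.0.16 and limma 3.58.1 ran in R 4.3.3, the rest in Python 3.11.15. The limma-trend genotype and slope fits were tested on simulated data, and the DESeq2 and edgeR fits were not. Genes were named by a rule: the 10 neighbours and Hsd17b1, genes within 500 kb with an unadjusted p under 0.05, the extremes of each list (1 is not reported here), and the 5 genes most correlated with Naglu. Slc5a6 and the other list members with only an unadjusted p under 0.05 were named after their values were seen. The neighbours and lists were chosen with earlier results of these data known. Besides the adipose list, marker levels (mean centred log2, HSD17B1-KI minus WT) differed by 0.30, 0.53, 0.70, 0.06, -0.97, -0.43, 0.02, 0.09 and -0.30 for granulosa, luteal, theca, oocyte, oviduct, smooth muscle, endothelial, macrophage and surface epithelial lists, each with an exact permutation p above the threshold.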

Additional observations from a re-analysis of the deposited data

How the results depend on the processing

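No neighbour passed the adjusted threshold in limma-trend under any alternative, nor when any single mouse was left out (0 in each of 15 fits), while DESeq2 called 2 neighbours, 3 genes within 500 kb and 6 genes of the lists. Leaving out 1 mouse gave 0 to 3 called neighbours in DESeq2, with 0 within 500 kb and 0 in the lists in limma-trend. The number of neighbours with an unadjusted p under 0.05 was 3 to 5 without single mice, the 5 without WT 4. The number of genes called over the whole table moved from 46 to 28 with no filter on low values, 28 with quantile normalization, 125 with array weights, 71 with edgeR, 456 with DESeq2, 0 with the adipose marker level as a term and 0 with the replicate number as a block. It was lowest, 6, when HSD17B1-KI 2 was left out and highest, 139, when HSD17B1-KI 5 was. The replicate numbers did not pair the mice: 2 of 7 pairs had a correlation above 0.1, from -0.55 to 0.55. Psmc3ip reversed sign, at log2 fold changes of 0.0906 with quantile normalization, 0.0049 with array weights, 0.0104 with the replicate block, 0.0559 with the oviduct term, 0.0023 with edgeR and 0.0046 with DESeq2, and between -0.13 and 0.0751 without single mice. Mlx was at -0.0072 with the adipose term. The causes were not tested. The log2 fold change of Hsd17b1 was 0.25 to 0.53 without single mice, and no neighbour's slope on Hsd17b1 passed the threshold in any fit (0 without single mice). Depth limits Ccr10, with 2 to 20 reads per library, and no neighbour.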
